A study of Mus musculus with 94 samples.

Results

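The extracellular modulators and receptors of Wnt signaling were examined in single perivascular adipose tissue-derived stem cells (PV-ADSCs) as 10 genes: *Sfrp1*, *Sfrp2*, *Sfrp4*, *Dkk2*, *Dkk3*, *Fzd1*, *Fzd4*, *Lrp1*, *Lrp6* and *Tcf7l2*. They were chosen by name, with earlier results of these data known, and all 10 were found among the 16069 genes of the deposited table. The cells were isolated with collagenase from peri-aorta adipose tissue of 8-week-old c57/bl mice and sorted as CD144-/CD45-/CD29+/Sca1+, without culture or treatment. The series describes 94 cells, each one a full-length library made by the SMARTseq v4 chemistry, and the table holds 85 of them. Since no cell was tied to an animal, all cells counted as 1 sample, and cells were compared without tests. They were divided by the deposited value of *Dcn*, which encodes the matrix proteoglycan decorin, into 58 stromal cells (*Dcn* of at least 1000) and 27 other cells. The lowest deposited value inside this threshold was 6521 and the highest outside was 269.

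Wnt proteins are secreted, lipid-modified ligands. In the canonical branch, a Wnt binds a Frizzled receptor together with the co-receptor Lrp5 or Lrp6, β-catenin escapes degradation, and it acts in the nucleus with TCF/LEF factors such as Tcf7l2. Secreted Frizzled-related proteins (Sfrp) bind Wnts outside the cell, and Dickkopf proteins (Dkk) act on the co-receptors. In adipose stromal cells, canonical Wnt signaling is known as a brake on adipogenesis.

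The division was compared with cell type markers first, in recovered reads, which are whole read counts obtained by dividing out the factors found in the deposited values. At 100 or more reads, stromal cells held a median of 8 of 10 fibroblast markers and 0 of 12 endothelial markers, whereas the other cells held a median of 0 and 5. *Pdgfra*, which encodes a receptor of stromal progenitors, was above 0 in 49 stromal and 5 other cells, and at 100 reads or more in 46 and 0. *Cdh5*, the gene of the CD144 protein against which the cells were gated, was above 0 in 23 of the 27 other cells and in 7 stromal cells. At 100 reads or more, it was found in 20 other and 0 stromal cells. The summed level of the endothelial list was 0 to 13687 RPM (recovered reads per 1000000 reads of the cell) in the other cells (median, 8365) and 0 to 14180 in stromal cells (median, 1.58). The top stromal value thus exceeded that of every other cell. A single stromal cell held 16197 reads of *Kdr*, an endothelial marker, and the next highest held 1127. In recovered reads of *Dcn*, the groups were not fully apart. The lowest stromal cell held 69 and the next 18172, whereas the other cells held 4 to 248. The cell with 69 had the fewest recovered reads (1146945) and held 0 of the 10 fibroblast markers at 100 reads. Only at this depth do 16197 reads of *Kdr* come near 14180 RPM, so these values fall on the same cell. It was kept as stromal by its deposited *Dcn* value of 6521, although by these markers it was closer to the other cells. Depth was similar, with a median of 2963854 recovered reads per stromal cell and 2714449 per other cell. Stromal cells held more genes above 0, with a median of 2813 (range, 850 to 4148) against 1416 in the other cells (range, 285 to 2278). No pair of cells held identical values.

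The 10 genes were mostly found in stromal cells. *Lrp1* led with 86.2% of stromal cells, followed by *Sfrp1* with 60.3%, *Lrp6* with 46.6%, *Sfrp4* and *Fzd1* with 41.4% each, *Fzd4* and *Tcf7l2* with 39.7% each, *Dkk2* with 24.1%, *Sfrp2* with 10.3% and *Dkk3* with 6.90%. The exact 95% interval of *Lrp1* (74.6% to 93.9%) did not overlap that of *Sfrp1* (46.6% to 73%), but every other pair of neighbors in this order had overlapping intervals. All such intervals are Clopper-Pearson intervals, which cover counting error and not the spread between animals. In the other cells, the shares lay between 0% and 11.1%.

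**Figure D1:**
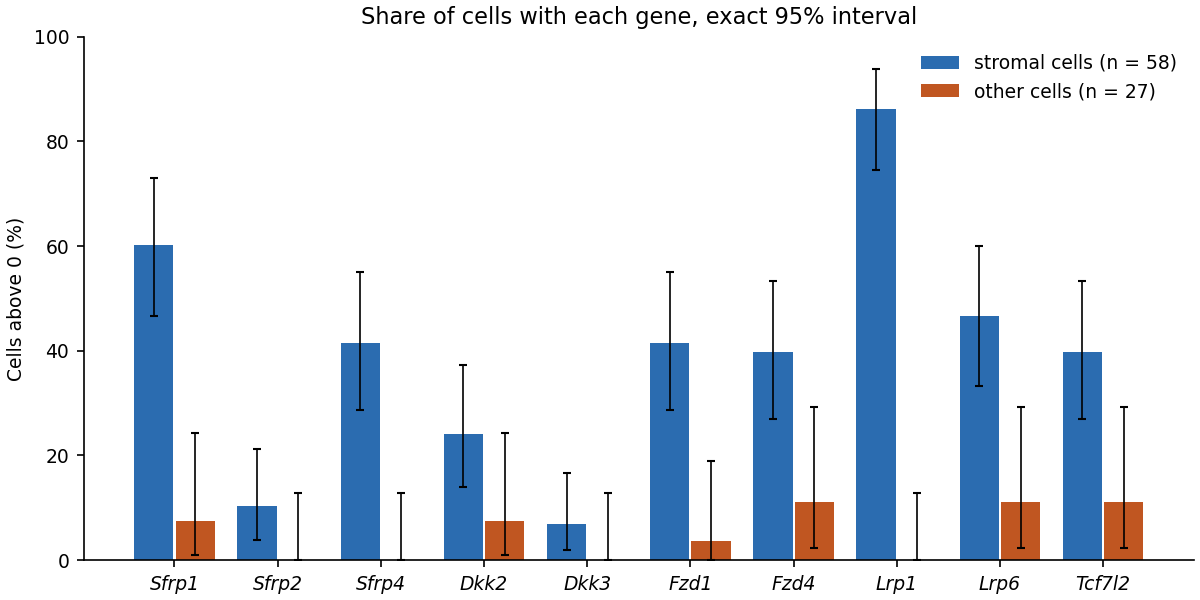
Share of cells with a deposited value above 0 (%, y axis) for each gene (x axis) in 58 stromal cells (blue) and 27 other cells (orange). Bars are shares and error bars are exact 95% Clopper-Pearson intervals. Lrp1 is highest at 86.2% of stromal cells and 0% of other cells, and the intervals of both groups overlap for Sfrp2, Dkk2, Dkk3, Fzd4 and Tcf7l2.

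Of the 10 genes, 8 were above 0 in at least 10 of the 85 cells, and *Sfrp2* and *Dkk3* were not. All 8 had a share at least 2-fold higher in stromal cells, compared with 64.5% of the 6127 genes above 0 in at least 10 cells, and none had a share at least 2-fold higher in the other cells, compared with 2.43% of genes. At a detection level of 100 recovered reads the count was again 8 of 8, compared with 69.3% of the 3777 genes that could be compared at that level. A gene that passes this filter only through the group in which it is high had to differ, so these counts are a description. As most genes were found in more stromal than other cells, the direction was shared with most of the transcriptome.

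The number of genes found per cell moved with this difference. The comparison was therefore repeated in the range that both groups cover, 850 to 2278 genes, which left 9 stromal and 24 other cells. The medians there were still 2053 genes in stromal and 1463.5 in other cells, so the number of genes was narrowed and not matched. The lower end of 850 was set by the stromal cell with 69 reads of *Dcn*. Within this range, 4 of the 8 genes kept a share at least 2-fold higher in stromal cells (36.6% of genes did), and 2 had a higher share in the other cells by the same rule (23.2% of genes did). *Lrp1* was above 0 in 5 of 9 stromal and 0 of 24 other cells, *Sfrp4* in 2 and 0, *Sfrp1* in 3 and 2, and *Tcf7l2* in 3 and 3. *Dkk2* and *Fzd1* were at 0 in all 9 stromal cells, which allows a share of up to 33.3%, and were above 0 in 2 and 1 of the 24 other cells. *Fzd4* and *Lrp6* were each found in 2 of 9 and 3 of 24. The part of the number of genes per cell in the result over all cells was not tested beyond these values, and they rest on few cells.

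On the level scale, the mean over cells of log2(deposited value + 1) was higher in stromal cells for all 10 genes, and 88.4% of all genes above 0 in at least 10 cells went the same way. The difference of stromal minus other cells was 8.43 for *Lrp1*, which ranked 41 among the 6127 genes, 5.23 for *Sfrp1* and 4.97 for *Sfrp4*. These 3 lay at or above the 95.3 percentile of all genes tested. The difference was 3.06 for *Lrp6*, 2.63 for *Fzd1*, 2.55 for *Fzd4*, 2.03 for *Tcf7l2*, 1.90 for *Dkk2*, 1.13 for *Sfrp2* and 0.70 for *Dkk3*. The median over the 10 genes was 2.59, whereas that over all genes tested was 1.32.

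Among the secreted Frizzled-related proteins, *Sfrp1* was found most widely. It was above 0 in 35 of 58 stromal cells, with 2 to 14777 recovered reads in those cells (median, 1054), and 26 of them held at least 100 reads. Its mean log2 level was 5.38 ± 5.19 (SD, n = 58 cells) in stromal cells and 0.15 ± 0.53 (n = 27 cells) in the other cells. The 2 positive other cells held 2 and 4 reads, below most of the positive stromal cells, although 6 stromal cells also held fewer than 10 reads. The share was 8.15-fold higher in stromal cells.

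*Sfrp4* was at 0 or at high read counts in nearly all cells. It was above 0 in 24 of 58 stromal cells (interval, 28.6% to 55.1%). In 1 of these it had 3 reads, and in the other 23 it had between 1718 and 25247, with a median of 5124 over all 24. In the other cells it was at 0 in 27 of 27 (share of up to 11.1% allowed; exact interval, 0% to 12.8%). Its mean log2 level was 4.97 ± 6.14 in stromal cells, where 34 cells were at 0.

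*Sfrp2*, of the same family, was found in 6 of 58 stromal cells (interval, 3.89% to 21.2%) and in 0 of 27 other cells. Where it was found it was well covered, with 1121 to 2686 reads and a median of 2088. Its mean log2 level over stromal cells was 1.13 ± 3.35. The limit of 11.1% in the other cells lies above the stromal share of 10.3%, so a difference was not detectable with this number of cells.

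*Sfrp1* and *Sfrp4* together reached more stromal cells than either alone. Of the 58 stromal cells, 45 (77.6%) had *Sfrp1* or *Sfrp4* and 14 had both, which is 40% of the *Sfrp1* cells and 58.3% of the *Sfrp4* cells. Among stromal cells without *Sfrp1*, 43.5% had *Sfrp4*, close to the 40% among those with it. Counting *Sfrp2* as well, 46 of 58 stromal cells (79.3%, interval 66.6% to 88.8%) had at least 1 of the 3, compared with 2 of 27 other cells. In the plot of the genes in each stromal cell, *Sfrp1* and *Sfrp4* form 2 blocks that overlap in part. The blocks are set by the order of the cells, which follows these 2 genes.

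**Figure D2:**
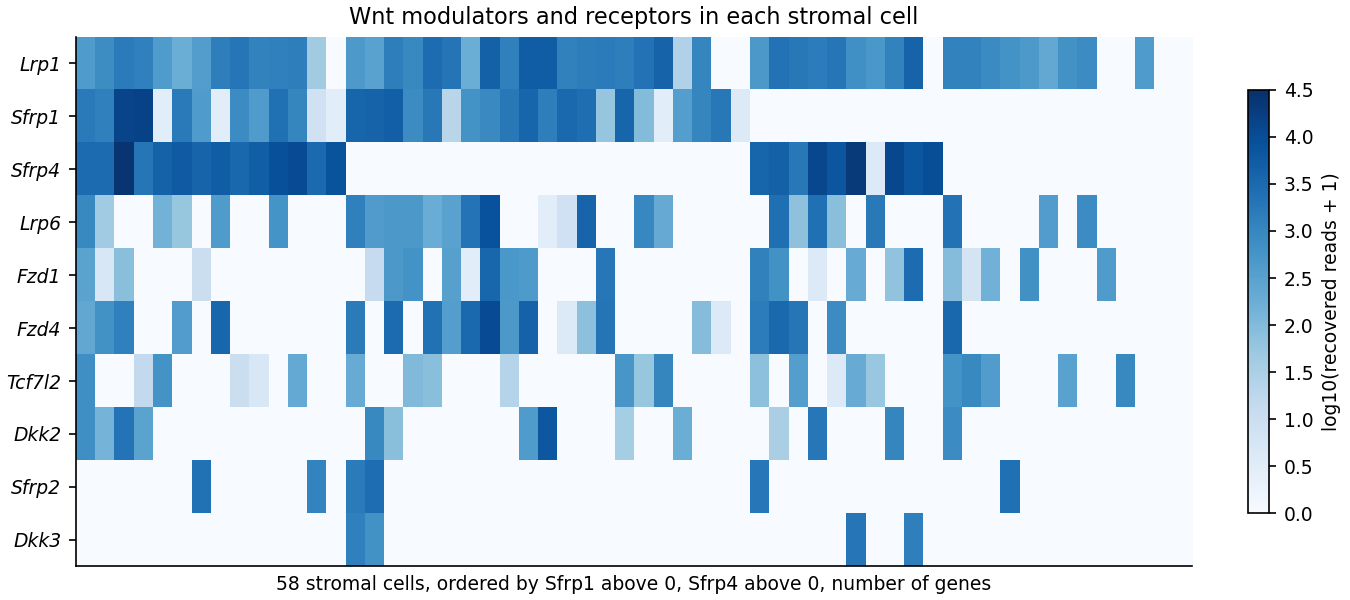
Recovered reads of each gene (rows) in each of the 58 stromal cells (columns), as log10(reads + 1) by color, with cells ordered by whether Sfrp1 and Sfrp4 were above 0 and by the number of genes found. Of the cells, 14 hold both Sfrp1 and Sfrp4 and 13 hold neither, while Lrp1 runs through all blocks and Sfrp2 and Dkk3 fill 6 and 4 cells.

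Of the Dickkopf genes, *Dkk2*, whose protein binds Lrp6, was above 0 in 14 of 58 stromal cells (24.1%, interval 13.9% to 37.2%) with 32 to 6610 reads and a median of 563. It was found in 2 of 27 other cells, at 2 and 4 reads, below every positive stromal cell, and the mean log2 levels were 2.04 ± 3.80 and 0.14 ± 0.52. The share was 3.26-fold higher in stromal cells, but the 2 intervals overlapped (0.910% to 24.3% in the other cells).

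*Dkk3*, a divergent member of the Dickkopf family, was found in 4 of 58 stromal cells, with 644 to 1885 reads, and was at 0 in all other cells. At this number of cells, its share of 6.90% could not be told apart from the limit of 11.1% in the other cells. A single stromal cell held both *Dkk2* and *Dkk3*. Any of the 5 secreted modulators was found in 47 of 58 stromal cells (81%), and 27 cells held 2 or more of them, compared with 4 and 0 of the 27 other cells.

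**Figure D3:**
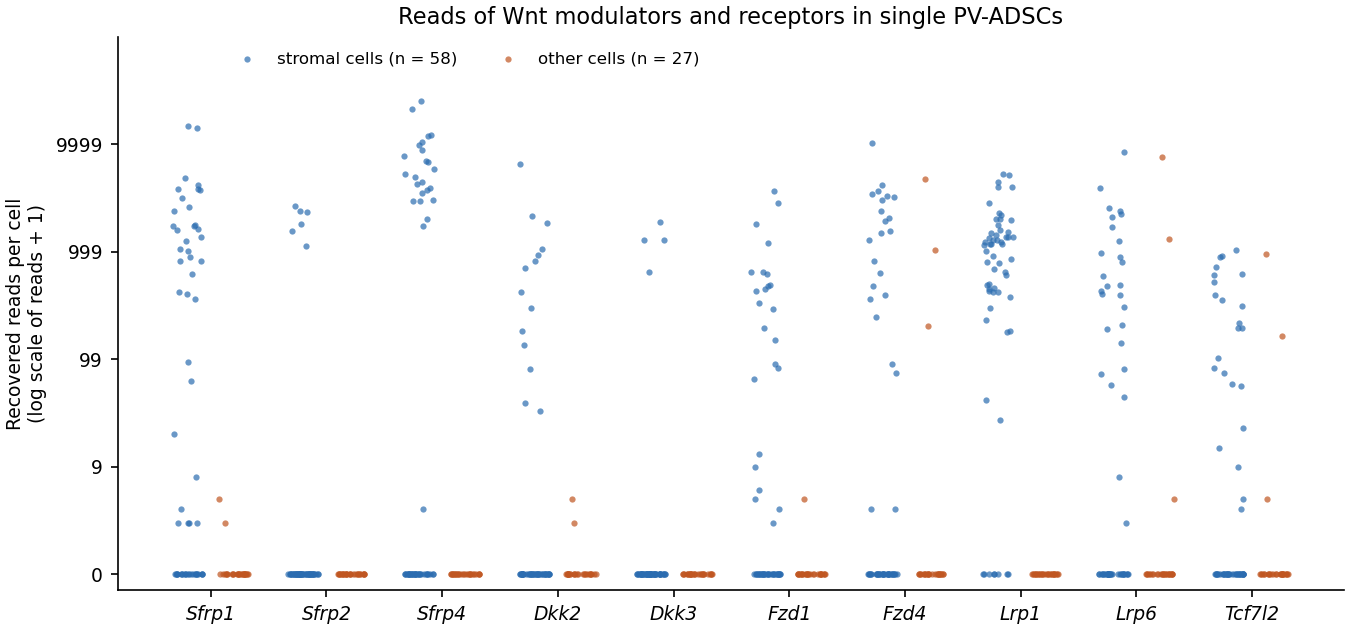
Recovered reads per cell (y axis, log scale of reads + 1) of each gene (x axis) in 58 stromal cells (blue) and 27 other cells (orange), each point a cell with sideways scatter for visibility. Sfrp4 splits into cells at 0 and cells at 1718 reads or more but for 1 cell with 3 reads, and the 7 points of other cells at 100 reads or more belong to Fzd4, Lrp6 and Tcf7l2.

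Both Frizzled receptors were found in about the same share of stromal cells. *Fzd1* was above 0 in 24 of 58 stromal cells with 2 to 3645 reads and a median of 311.5, and 15 of them held at least 100 reads. In the other cells it was found once, at 4 reads, so its share was 11.2-fold higher in stromal cells. Its mean log2 level was 2.82 ± 3.91 in stromal and 0.19 ± 0.98 in other cells. The deposited values of *Fzd1* carry factors from 0.0409 to 26.9, the largest ratio of highest to lowest among the 10 genes, and its highest deposited value of 16546 belongs to a cell with 614 reads.

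*Fzd4*, whose protein also binds Norrin in endothelial cells, was above 0 in 23 of 58 stromal cells with 3 to 10263 reads and a median of 1480. It was also found in 3 of 27 other cells (11.1%, interval 2.35% to 29.2%), where it had 203, 1033 and 4740 reads. These values lie within the range of the stromal cells, so the groups overlapped in level, and the stromal share was 3.57-fold higher. Its mean log2 levels were 3.67 ± 4.90 and 1.12 ± 3.28.

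In stromal cells, 34 of 58 (58.6%, interval 44.9% to 71.4%) had *Fzd1* or *Fzd4*, and 13 had both. *Fzd4* was present in 54.2% of the cells with *Fzd1* and in 29.4% of those without it. With the other Frizzled genes of the table added, 43 of 58 stromal cells had at least 1 Frizzled gene, compared with 9 of 27 other cells.

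*Lrp1* encodes a large endocytic receptor of the LDL receptor family that takes up lipoproteins, proteases and matrix proteins. It was above 0 in 50 of 58 stromal cells with 26 to 5273 reads and a median of 1179.5, and 48 of these cells held at least 100 reads. It was at 0 in every other cell (exact interval, 0% to 12.8%), and its mean log2 level was 8.43 ± 3.66 in stromal cells. *Sfrp1* was the only other gene of the 10 whose SD over stromal cells was below its mean.

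*Lrp6*, the Wnt co-receptor, was found in 27 of 58 stromal cells (interval, 33.3% to 60.1%) with 2 to 8517 reads and a median of 476. The 3 other cells with *Lrp6* had 4, 1303 and 7660 reads, which spans nearly the same range. The stromal share was 4.19-fold higher, and the mean log2 levels were 4.0 ± 4.68 and 0.95 ± 3.13. All 27 stromal cells with *Lrp6* also had *Lrp1*, and *Lrp6* was at 0 in the 8 stromal cells without *Lrp1*. The homolog *Lrp5*, named here after its values were seen, was found in 1 stromal cell.

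*Tcf7l2*, the nuclear partner of β-catenin, was above 0 in 23 of 58 stromal cells with 3 to 1044 reads and a median of 192, and 14 of them held at least 100 reads. It was found in 3 of 27 other cells, with 4, 162 and 960 reads, so here too the positive cells of both groups overlapped. The stromal share was 3.57-fold higher, and the mean log2 levels were 2.77 ± 3.75 and 0.74 ± 2.39.

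The promoter windows of 3 of these genes are shown, namely *Lrp1*, which was found in most stromal and in no other cells, *Fzd4*, which was found in both groups at overlapping levels, and *Tcf7l2*, which encodes a TCF factor and has the single motif match. Each window runs from 250 bases before to 50 after a transcription start site in RefSeq on GRCm38.p6, a different build from the mm9 of the authors' alignment. The windows were searched on both strands for the TCF/LEF core spelled CTTTGAA or with another ending as CTTTGAT or as the variants CTTTGTA and likewise CTTTGTT, and capitals mark a match. *Lrp1* lies at chr10:127621099-127621398 on the minus strand (GC content, 67.7%), *Fzd4* at chr7:89404116-89404415 on the plus strand (72.7%), and the second of 2 *Tcf7l2* windows at chr19:55895071-55895370 on the plus strand (42%).
Lrp1: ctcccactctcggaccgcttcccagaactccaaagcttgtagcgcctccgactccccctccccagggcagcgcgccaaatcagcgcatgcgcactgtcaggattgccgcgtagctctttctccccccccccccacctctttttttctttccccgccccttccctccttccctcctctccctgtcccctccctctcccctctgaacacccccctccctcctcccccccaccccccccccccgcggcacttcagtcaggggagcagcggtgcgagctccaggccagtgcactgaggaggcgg
Fzd4: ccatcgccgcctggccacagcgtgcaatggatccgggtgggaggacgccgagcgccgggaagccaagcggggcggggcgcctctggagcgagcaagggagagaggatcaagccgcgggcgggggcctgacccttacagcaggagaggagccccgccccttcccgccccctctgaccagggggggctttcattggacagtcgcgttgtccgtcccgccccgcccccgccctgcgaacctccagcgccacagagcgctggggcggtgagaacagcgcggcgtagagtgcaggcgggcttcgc
Tcf7l2: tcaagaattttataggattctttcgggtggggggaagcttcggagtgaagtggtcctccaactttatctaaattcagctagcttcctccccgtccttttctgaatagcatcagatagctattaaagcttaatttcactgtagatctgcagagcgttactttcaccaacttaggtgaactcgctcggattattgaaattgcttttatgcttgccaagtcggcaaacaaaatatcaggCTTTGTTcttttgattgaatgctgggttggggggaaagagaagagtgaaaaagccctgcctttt
The median GC content of all windows was 52.7%. Of the 7 windows found for *Sfrp2*, *Dkk2*, *Fzd1*, *Fzd4*, *Lrp1* and *Tcf7l2*, 1 held a match, the CTTTGTT that starts 14 bases before the start site in the *Tcf7l2* window above, and 16.9% of all 32851 windows held one. *Sfrp1*, *Sfrp4*, *Dkk3* and *Lrp6* were not among the windows.

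Levels can be compared between genes only per length. As RPKM, which is RPM per kilobase of exon, the mean over stromal cells was highest for *Sfrp4* at 223 ± 371 (SD, n = 58 cells), followed by *Sfrp1* at 106 ± 233, *Sfrp2* at 46.2 ± 155 and *Fzd4* at 35.8 ± 75.4. *Lrp1*, which was found in the most cells, had a mean of 22.8 ± 22.9 and has 17717 exonic bases, the most of the 10 genes. *Dkk2* (21.5 ± 74.8), *Fzd1* (17.5 ± 43.1), *Lrp6* (13.4 ± 30.8), *Dkk3* (8.87 ± 34.1) and *Tcf7l2* (4.85 ± 10.3) followed. No pair of neighbors in this order differed by more than their SDs. In the other cells, *Fzd4* (12 ± 50) and *Lrp6* (8.42 ± 37.3) had the highest means.

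Counted per cell, stromal cells had a median of 4 of the 10 genes above 0 (range, 0 to 8; mean, 3.97 ± 1.82) and the other cells a median of 0 (range, 0 to 3; mean, 0.52 ± 0.80). At least 4 genes were found in 40 of 58 stromal cells and in no other cell, whereas 17 of 27 other cells and 2 stromal cells had none. At 100 reads or more, the medians were 3 and 0. Within the shared range of 850 to 2278 genes per cell, the median was 2 in the 9 stromal cells and 0 in the 24 other cells. The stromal cells still held more genes in all there (median, 2053 against 1463.5).

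**Figure D4:**
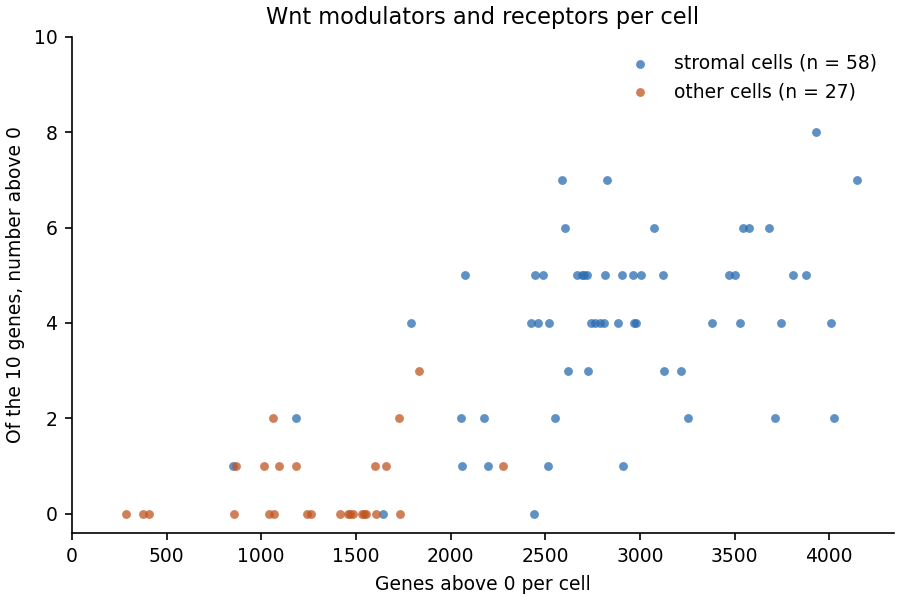
Number of the 10 genes above 0 (y axis) against the number of all genes above 0 (x axis) in each cell, for 58 stromal cells (blue) and 27 other cells (orange). Stromal cells reach 8 of the 10 genes and 4148 genes in all, other cells 3 and 2278, and the groups share only the range from 850 to 2278 genes.

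The other cells held 14 values above 0 in all, spread over 10 cells. Of these, 7 values were below 10 reads, among them all those of *Sfrp1*, *Dkk2* and *Fzd1*. *Dcn* itself had 4 to 248 reads in these cells (median, 14), and *Col3a1*, which encodes a fibrillar collagen, had 2 to 43 in 24 of them, with fewer than 10 in 17. The source of such low values was not tested. The other 7 values had at least 100 reads and fell in 5 cells, which held 2 to 8 of the 12 endothelial markers and 0 of the 10 fibroblast markers at 100 reads. Of these, 1 cell had 7660 reads of *Lrp6* and 162 of *Tcf7l2*, and 1 cell had 1033 of *Fzd4* and 1303 of *Lrp6*.

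The rest of the pathway was counted over 8 lists of Wnt genes. Of 114 listed genes besides the 10, 77 were analysed and 36 were above 0 in at least 10 cells. A share at least 2-fold higher in stromal cells was found for 21 (58.3%, beside 64.5% of all genes), a share at least 2-fold higher in the other cells for 3 (8.33%, beside 2.43% of all genes), and neither for 12. The 3 were *Tmem88*, *Ctnnbip1* and *Sox18*, the last 2 of which were named after their values were seen.

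Among the ligands and their secretion, all 4 genes compared had the 2-fold higher share in stromal cells, as did 64.5% of all genes. *Wnt5a*, best known for signaling without β-catenin, was above 0 in 26 stromal cells and 1 other cell, *Wnt11* in 16 and 0, *Wnt9a* in 11 and 2, and *Wls*, which carries Wnts to the cell surface, in 32 and 1. *Wnt2* was found in 5 stromal cells and *Porcn*, the enzyme that lipidates Wnts, in 2. Any of the 7 ligands analysed was found in 40 of 58 stromal cells (69%, interval 55.5% to 80.5%) and in 3 of 27 other cells. For 2 pairs chosen after their values were seen, *Wnt5a* was present in 57.1% of the 14 *Dkk2* cells and in 40.9% of the stromal cells without *Dkk2*, and in 63% of the 27 *Lrp6* cells and 29% of the cells without *Lrp6*.

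None of the 5 R-spondin genes and receptors analysed reached 10 cells, with *Rspo1* above 0 in 8 stromal cells and *Lgr4* in 6. Of the further secreted modulators and their receptors, *Igfbp4*, which encodes an IGF-binding protein, was above 0 in 53 stromal and 5 other cells, and at 100 reads or more in 50 and 0. *Kremen1*, a Dickkopf receptor, was found in 9 stromal cells, and *Frzb*, a Frizzled-related protein, in 1. *Cthrc1*, whose protein is known to stabilize Wnt bound to Frizzled rather than to inhibit it, was found in 5.

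Of 6 receptor genes compared besides the named ones, 5 had the 2-fold higher share in stromal cells, beside 64.5% of all genes. *Gpc6*, a glypican, was above 0 in 30 stromal and 4 other cells, *Ryk*, a Wnt receptor related to tyrosine kinases, in 26 and 2, and *Fzd2* in 13 and 1. *Tmem88*, a membrane protein that binds Dishevelled, went the other way, with 7 stromal and 18 other cells.

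The genes acting inside the cell were counted next, again beside the 64.5% of all genes with the 2-fold higher share in stromal cells. Of 12 cytoplasmic genes compared, 4 had the higher share in stromal cells, 1 in the other cells and 7 neither. *Ctnnb1*, which encodes β-catenin, was above 0 in 35 stromal and 12 other cells, *Csnk1a1*, a kinase of the β-catenin destruction complex, in 37 and 11, *Rac1* in 35 and 8, and *Rhoa* in 56 and 24. Of 8 nuclear genes, 4 had the higher share in stromal cells, 1 in the other cells and 3 neither. The corepressor gene *Aes* was found in 33 and 4, and the acetyltransferase genes *Crebbp* and *Ep300* in 27 and 8 and in 25 and 1.

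Of 5 genes known as targets of the pathway, 3 had the 2-fold higher share in stromal cells, beside 64.5% of all genes. *Myc* was above 0 in 25 stromal and 0 other cells, *Cd44* in 24 and 0, and *Twist1* in 13 and 0, whereas *Jun* was found in 57 and 23. These genes are also known to answer to many other signals. *Axin2*, a widely used readout of canonical Wnt signaling that was named after its values were seen, was found in 5 stromal cells, 1 of them with at least 100 reads.

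Within stromal cells, the 10 genes varied with little relation to each other. Spearman's rho of RPM over the 58 cells lay between -0.17 and 0.40 for the 45 pairs, with a median of 0.05, and all pairs share the same libraries and their depth. The highest was that of *Fzd4* and *Lrp6*, and *Fzd4* was found in 59.3% of the 27 *Lrp6* cells and in 22.6% of the cells without *Lrp6*. Against 14 genes of adipose progenitors and committed preadipocytes, rho lay between -0.31 and 0.42, with a median of 0.02 over 140 pairs. At the upper end, 93.9% of the 49 *Pdgfra* cells had *Lrp1*, compared with 44.4% of only 9 cells without *Pdgfra*. At the lower end lay 2 pairs, where 5% of the 20 cells with *Cd55* had *Dkk2*, compared with 34.2% of those without, and 48.4% of the 31 cells with *Sema3c* had *Sfrp1*, compared with 74.1% of those without. Weak correlations in counts with many zeros are given here as values only.

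Over all 85 cells, the genes most like each of the 8 were ranked among 6127 genes, where likeness also carries the division into stromal and other cells. *Lrp1* had the closest neighbors, the secreted factor gene *Serpinf1* and *Col3a1* at a rho of 0.72 each and *Gpx3* at 0.70. *Sfrp1* was nearest to *Gpx3* (0.64), *Abca8a* (0.62) and *Svep1* (0.62), and *Sfrp4* to *Dclk1* (0.62), *Arsk* (0.57) and *Ppp1r14b* (0.55). *Dkk2* was nearest to *Fat1* (0.53), *Cped1* (0.51) and *Zdhhc20* (0.49), *Fzd4* to *C1qtnf2* (0.55), *Surf4* (0.51) and *Ppt1* (0.48), and *Tcf7l2* to *Maged2* (0.49), *Sdf2l1* (0.48) and *Mmadhc* (0.45). *Fzd1* was nearest to *Gm37070* (0.53), *Fbln1* (0.50) and *Golph3* (0.50), and *Lrp6* to *Txnl1* (0.56), *Gm15501* (0.55) and *Gm11353* (0.53). The genes with names in Gm are predicted genes, whose reads may be shared with near-identical copies.

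Within the 58 stromal cells, where the division plays no part, the same ranking was made among 5383 genes. *Sfrp4* kept *Dclk1* (0.53) and *Arsk* (0.52) as its nearest genes, *Dkk2* kept *Cped1* (0.54) and *Fat1* (0.50), and *Fzd4* kept *C1qtnf2* (0.51), *Surf4* (0.50) and *Ppt1* (0.47). *Tcf7l2* kept *Maged2* (0.51) and *Sdf2l1* (0.50). *Sfrp1* was nearest to *Steap4* (0.55), *Lrp6* to *Angptl1* (0.53) and *Fzd1* to *Gm37070* (0.50). For *Lrp1* the highest value fell to 0.43, with *Ctsk*, the gene of the protease cathepsin K.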

How the data were processed

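Single CD144-/CD45-/CD29+/Sca1+ cells were sequenced as 1 library per cell. The authors used HISAT2 2.0.5 to align reads to mm9, SAMtools 1.4 for sorting and StringTie 1.3.3 for assembly, according to the submitters' processing notes and the methods of the study, and then applied the default scaling normalization of scater. The counting program is not given in the sources used here. The deposited values are a signal of normalized read counts for 85 of 94 cells, and the other 9 cells were not analysed here. Since they are not raw counts, log2(value + 1) was used, the alternative set for that case.

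Whole reads were recovered by a method devised after the values were seen. Genes above 0 in fewer than 10 cells, and 723 others, were whole already. The other 5404 fell into 13 groups, each multiplied in each cell by a factor (0.0157 to 94.5) that was divided out, and all 144272 values of these groups were then whole within 0.001 reads. The methods of the study name a default scaling and do not describe separate factors for groups of genes. A factor rested on fewer than 10 values in 20 of 1105 combinations of cell and group, which held none of the 244 values of the named 10 genes. The recovery and the 2-fold calls were tested on simulated data first. There, an unchanged gene had the same probability of detection in every cell. The simulation thus lacked the difference in genes per cell between the groups, and the effect of that difference on the calls was not tested by it. Thinning every cell to 1146945 reads removed differences of depth.

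Detection was a deposited value above 0. Shares were compared as a fold of 2 among genes above 0 in at least 10 cells, and a gene at 0 in 1 group counted as past the fold. Where a gene was found in 0 cells, 3 cells were used as the limit, and no fold is given. All cells were 1 sample, so no test between cells was made. Exonic lengths came from GENCODE M21 and promoter windows from RefSeq. Besides the 10 genes, the text names up to 4 genes of each Wnt list with the largest share of cells and the 3 genes of highest Spearman's rho for each. The genes and lists were chosen with earlier results of these data known. Doublets were not called, as 1 cell was sorted per library. Python 3.11.15, numpy 2.4.6, pandas 2.3.3, scipy 1.17.1 and matplotlib 3.10.9 were used.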

Additional observations from a re-analysis of the deposited data

How the results depend on the processing

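The stromal cells were also defined by a *Dcn* value of at least 100 or 5000, by 1000 recovered reads of *Dcn*, or by 2 of *Col1a1*, *Col3a1* and *Lum* at 1000. The rule of 1000 recovered reads gave 57 stromal and 28 other cells, as the cell with 69 reads of *Dcn* moved to the other cells. Detection was set to a value of 10, or to 10 or 100 reads, and cells were thinned to equal depth. In each of these, all 8 genes kept the 2-fold higher share in stromal cells. The share of all genes under the same rule was 64.5% in the main setting and 69.3% at 100 reads. It was not computed for the rest of these settings, so the counts are a description. With the 3 collagen and lumican genes (49 stromal and 36 other cells), the median number of the 10 genes per other cell was 1.0 in place of 0.0, and *Lrp1* was found in 19.4% of the other cells. Of the alternatives chosen after seeing the data, the shared range of genes per cell left 4 of 8 genes with the higher stromal share, compared with 36.6% of all genes. The median was then 2.0 genes per stromal cell. The cause of this change was not tested. Leaving out 1 stromal cell with markers of both classes left the count at 8, and the share of all genes was not computed there. That cell held 6 of the 10 genes and is not the cell with 69 reads of *Dcn*, which stayed among the stromal cells. The median log2 difference over the 10 genes lay between 1.60 and 2.59 across scales and was 2.67 with 1000 recovered reads of *Dcn*, with all 10 higher in stromal cells in each. Over all genes, 86.6% to 89.1% were higher in stromal cells in these settings, with medians of 0.72 to 1.36. Of the 24 most similar genes, 21 were shared with a ranking of deposited values and 14 with Pearson's r. With 27 other cells, a share below 11.1% could be missed. No paired analysis was possible because the cells form a single group and the result comes from no test.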

Other observations

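Among the 36 Wnt-related genes compared besides the 10, the 3 with the higher share in the other cells differed in role. *Sox18*, an endothelial transcription factor, was above 0 in 10 of 27 other cells with up to 9787 reads, and in 2 of 58 stromal cells with at most 4 reads. *Ctnnbip1*, whose protein keeps β-catenin from TCF factors, was above 0 in 11 other and 8 stromal cells, and *Tmem88* in 18 and 7. *Sox17*, related to *Sox18*, was found in 6 other cells, each with at least 100 reads, and in 3 stromal cells with at most 3 reads. *Tspan12*, which encodes a partner of Fzd4, was above 0 in 4 other and 5 stromal cells, with 21247 summed reads in the former and 2065 in the latter. *Sox17* and *Tspan12* were named after their values were seen, and no test was made.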
